A study of Mus musculus with 6 samples.

Results

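Molecular chaperones are proteins that help other proteins to fold, stay folded or be handed on for degradation, and each compartment of the cell has its own set. Transcripts of 52 such genes were followed in the hearts of Elac2 knockout and control mice. They were found by gene name among the 51888 rows of the deposited gene tables and fall into a mitochondrial set of 12 genes, an endoplasmic reticulum (ER) set of 20 genes and a cytosolic set of 20 genes. The mitochondrial set also holds quality-control proteases, and the ER set holds the sensors and degradation factors of the unfolded protein response. Elac2 encodes RNase Z, which cuts tRNA precursors at their 3' end and works both in mitochondria and in the nucleus. The knockout group was 3 mice of genotype Elac2 -/-, in which both alleles carried a loxP-flanked exon (L/L) and cre was expressed from the muscle creatine kinase promoter. The control group was 3 mice labelled Elac2 +/+ and L/L, with no cre in their label. All 6 mice were C57BL/6, and the labels give no age. Total RNA of whole hearts was sequenced from TruSeq libraries, 1 count column per mouse, so cells in which this promoter is not active also contributed to every library.

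Mitochondria fold imported proteins with mtHsp70 and with the Hsp60 and Hsp10 chamber, and they clear damaged proteins with ATP-driven proteases such as Lon. The ER lumen folds secreted and membrane proteins with BiP, lectin chaperones and disulphide isomerases. Its load is read by the sensors IRE1, ATF6 and PERK. In the cytosol, Hsp70, Hsp90, the CCT ring and small heat shock proteins do this work, and heat shock factor 1 raises several of their transcripts under stress. In heart muscle the small heat shock proteins are abundant and bind to the contractile apparatus.

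The libraries held 14461110, 13641345 and 9850100 counts in knockout hearts and 14276410, 12553384 and 12057962 counts in control hearts. Elac2, whose counts cover the whole gene and not only the removed exon, was at 5.36, 5.63 and 6.52 CPM in knockout hearts and at 15.1, 14 and 13.01 CPM in control hearts. It was lower in each knockout library, and the log2 fold change was -1.27 (SE 0.15, adjusted p = 2.12e-04). Here and below, p-values are from edgeR's quasi-likelihood test, adjusted by Benjamini-Hochberg over all 14302 tested genes, and a gene was called at an adjusted p under 0.05. CPM are TMM-scaled counts per 1e6 counts of a library. Mitochondrial-encoded features took 33.3 to 36.7% of counts in knockout libraries and 49.3 to 61.1% in control libraries. With library size alone as the scale, which includes those counts, all tested genes had a median log2 fold change of 0.68, against -0.01 with TMM, so the changes given here are relative to the bulk of tested genes. Summed CPM of 10 cardiomyocyte markers were 68380 to 69670 in knockout hearts and 102500 to 104200 in control hearts, with 5 of the 10 lower. Of the other marker lists, 4 of 10 endothelial markers were lower, with 682 to 759 summed CPM in knockout hearts against 924 to 1007 CPM in control hearts. Of 10 smooth muscle and pericyte markers 4 were lower and 2 higher, with 753 to 800 summed CPM in knockout hearts and 1239 to 1496 CPM in control hearts. The fibroblast list had 1 of 10 markers higher, with 1774 to 3040 summed CPM in knockout hearts and 1220 to 1808 CPM in control hearts. The macrophage list had 1 of 10 higher (234 to 272 CPM in knockout hearts, 223 to 243 CPM in control hearts) and the erythroid list 1 of 7 (1440 to 2942 CPM in knockout hearts, 522 to 1795 CPM in control hearts). No marker was at 0 in any library. In whole-heart RNA, fewer cells of a type and less RNA per cell cannot be told apart, and the part of cell composition in the results below was not tested.

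All 52 genes passed the filter on low counts. Of these, 21 rose, 2 fell and 29 were not called. This is 44.2% of the 52 genes, against 36.5% of all tested genes in either direction, with 18.7% of all tested genes called higher and 17.8% called lower. The median log2 fold change was 0.25 over the 52 genes and -0.01 over all tested genes. All 3 knockout libraries lay above all 3 control libraries for 28 genes and below them for 2, where this held for 26.2% and 24.5% of all tested genes. The sets differed in their counts. The cytosolic set had 12 of 20 genes called (60%), the mitochondrial set 5 of 12 (41.7%) and the ER set 6 of 20 (30%). The ER and mitochondrial shares in either direction were near the 36.5% of all tested genes. By direction, 11 cytosolic genes were called higher and 1 lower, 4 mitochondrial genes higher and 1 lower, and 6 ER genes higher and 0 lower. With library size alone 9 of 12 mitochondrial, 16 of 20 ER and 17 of 20 cytosolic genes were called, each of them higher, where 56.6% of all tested genes were called higher and 3.86% lower.

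**Figure D1:**
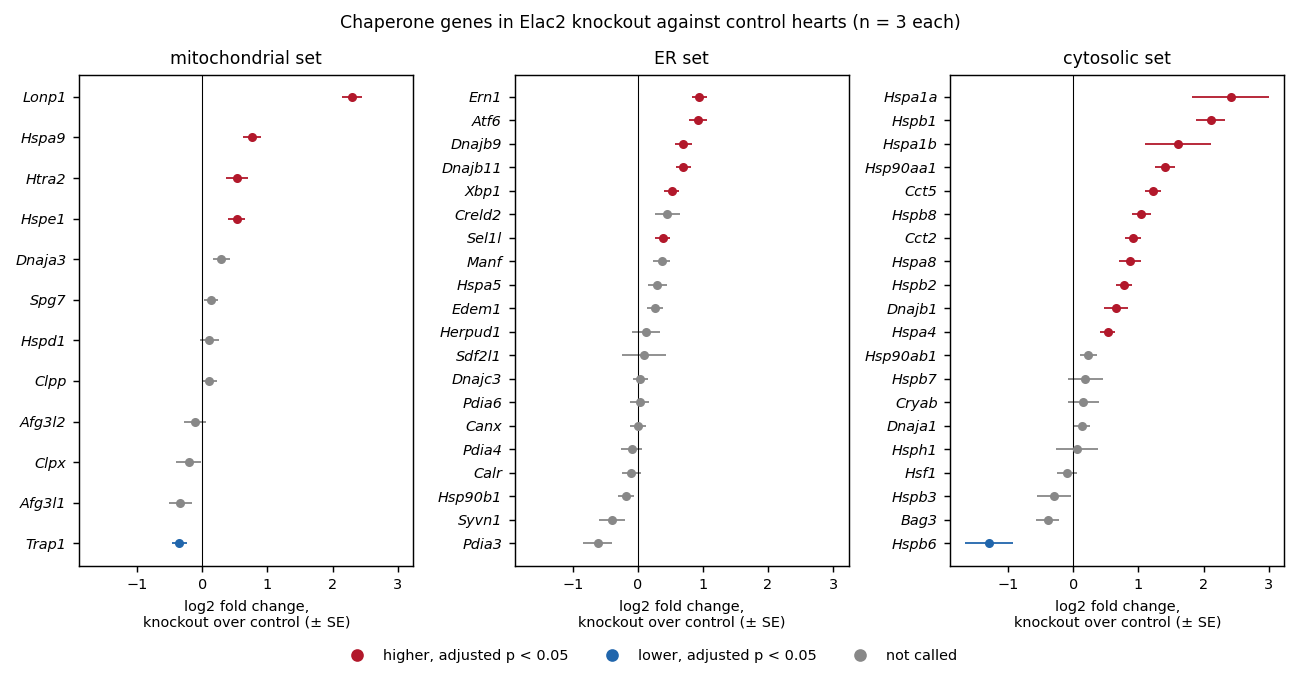
Log2 fold change, knockout over control, of each of the 52 genes by set; points are edgeR estimates (n = 3 knockout and 3 control hearts), bars are ± SE, and red or blue points passed an adjusted p of 0.05. Lonp1 stands apart at 2.30 in the mitochondrial set, the ER set runs from -0.61 to 0.94, and the cytosolic set holds 11 red points and 1 blue point, Hspb6.

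**Figure D2:**
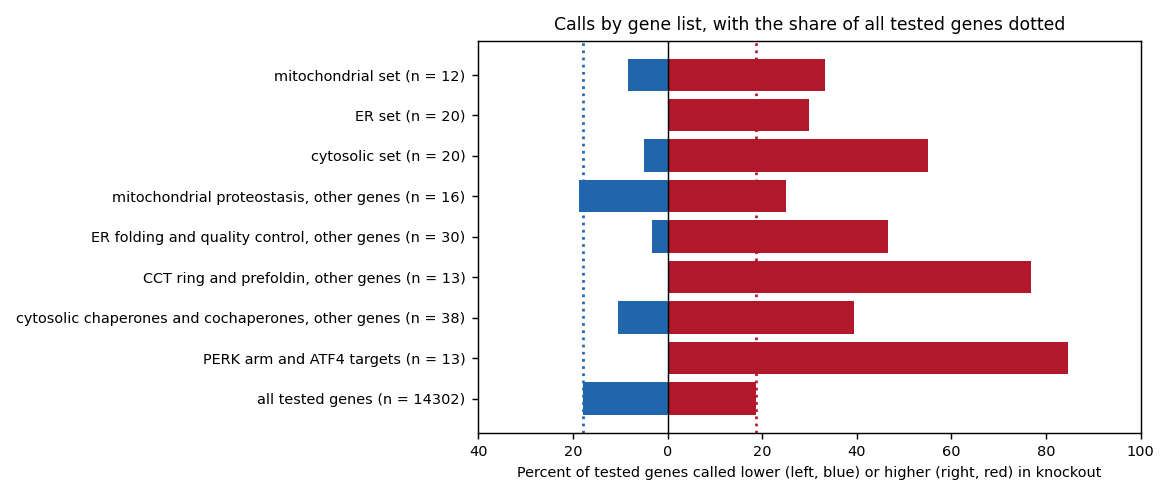
Percent of tested genes called higher (red, to the right) or lower (blue, to the left) in knockout hearts in each gene list, with the shares of all tested genes, 18.7% and 17.8%, as dotted lines. The bars of the cytosolic set (11 higher and 1 lower of 20) and of the CCT ring and prefoldin list (10 higher of 13) reach further right than those of the mitochondrial and ER sets.

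In the mitochondrial set the protease gene Lonp1 rose most, the Hsp70 gene Hspa9, the Hsp10 gene Hspe1 and the protease gene Htra2 rose less, and the Hsp90 gene Trap1 fell. The partner genes Hspd1 and Dnaja3 and the Clp and m-AAA protease genes were not called. The median of the set was 0.12. Lonp1 and Hspa9 were called under every alternative tried, and the other 3 calls were not.

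Lonp1 (ENSMUSG00000041168.9, chromosome 17, 56614297 to 56626887, minus strand, GRCm38) encodes Lon, the ATP-dependent protease of the mitochondrial matrix that also binds mitochondrial DNA. It was at 337, 326 and 321 CPM in knockout hearts and at 78.8, 67.0 and 53.7 CPM in control hearts. The groups were far apart and the knockout libraries lay close together. The change was 2.30 on the log2 scale, or 4.92-fold (SE 0.15 log2, adjusted p = 1.1e-05). Per exon length it averaged 74.9 RPKM in knockout hearts and 15.2 RPKM in control hearts, RPKM being CPM divided by the summed length of the gene's exons in kilobases.

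The other protease genes of the matrix and inner membrane in the set were not called. Clpp, the proteolytic subunit of the ClpXP protease, was at 16.1, 15.9 and 15.9 CPM in knockout hearts and at 14.5, 14.8 and 15.1 CPM in control hearts. Its knockout libraries lay above the controls by little, and the log2 value of 0.11 was not called (SE 0.12, adjusted p = 0.51). Clpx, the unfoldase that feeds ClpP, was at 37.4, 56.5 and 68.1 CPM in knockout hearts and 62.9, 69.5 and 54.7 CPM in control hearts, with overlapping groups (-0.21, SE 0.20, adjusted p = 0.433). The ratio of Lonp1 to Clpp counts within a library, which no scaling touches, was 20.9, 20.6 and 20.2 in knockout hearts and 5.42, 4.53 and 3.55 in control hearts. This and the other ratios below were chosen after the values were seen.

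Afg3l1, Afg3l2 and Spg7 encode subunits of the m-AAA protease of the inner membrane, which also trims newly imported proteins. Afg3l1 was at 26.3, 20.5 and 16.9 CPM in knockout hearts and 24.4, 24.9 and 31.6 CPM in control hearts (-0.34, adjusted p = 0.159). Afg3l2 was at 85.3, 57.8 and 56.3 CPM in knockout hearts and 66.3, 69.7 and 81.0 CPM in control hearts (-0.12, adjusted p = 0.616). For both, knockout 1 lay among or above the controls and the other knockout libraries below them. Without knockout 1 both were called lower, Afg3l1 at -0.52 and Afg3l2 at -0.34. Spg7, which was at 39.8 to 41.5 CPM in knockout hearts and 33.9 to 39.5 CPM in control hearts, was not called (0.13, adjusted p = 0.377).

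Htra2 encodes a serine protease of the intermembrane space. It was at 16.2, 12.4 and 11.3 CPM in knockout hearts and at 9.56, 9.45 and 8.60 CPM in control hearts. The groups did not overlap, and it rose by 0.53 (SE 0.17, adjusted p = 0.0324). The call was lost when any library but knockout 3 was left out, with values of 0.36 to 0.64 over all 6 omissions. Of its exonic bases 25.6% are shared with Aup1 and 18.2% with Loxl3 on the opposite strand, and it is not known from the labels or tables whether reads were counted by strand.

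Hspa9 encodes mortalin, the mtHsp70 that pulls proteins through the import channel and folds them. It was at 673, 833 and 772 CPM in knockout hearts and at 482, 431 and 429 CPM in control hearts. Every knockout library lay well above every control, and Hspa9 rose by 0.76 (SE 0.14, adjusted p = 0.00265). At 176 RPKM in knockout hearts and 104 RPKM in control hearts it was the most abundant of the 12 transcripts per length. Dnaja3, a mitochondrial J-protein that works with it, was at 89.2, 98.0 and 95.3 CPM in knockout hearts and 84.1, 82.3 and 64.1 CPM in control hearts. Its groups did not overlap either, but the change of 0.29 (SE 0.13) did not pass the test (adjusted p = 0.108).

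Hspd1 and Hspe1 encode Hsp60 and its lid Hsp10, which together form the folding chamber of the matrix. The genes lie head to head on chromosome 1, Hspd1 from 55077835 to 55088243 on the minus strand and Hspe1 from 55088132 to 55091307 on the plus strand (GRCm38), and share 112 exonic bases. Hspe1 was at 51.4, 66.7 and 56.1 CPM in knockout hearts and 42.7, 36 and 41.7 CPM in control hearts. It rose by 0.53 (SE 0.13, adjusted p = 0.0108), and the call was lost without knockout 2 (adjusted p = 0.0513). Hspd1 was at 195, 263 and 239 CPM in knockout hearts and 232, 202 and 212 CPM in control hearts. Its groups overlapped, with knockout 1 below every control, and the value was 0.11 (SE 0.14, adjusted p = 0.583). The ratio of Hspe1 to Hspd1 counts was 0.264, 0.253 and 0.235 in knockout hearts and 0.184, 0.178 and 0.197 in control hearts, so the partner transcripts were at different proportions in the groups. Hspd1 shares 1722 bases at 99.0% identity with the processed pseudogene Hspd1-ps3, and reads of such copies may have been split by the counting.

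The stretch between the RefSeq starts of both genes is shown because it lies before both and holds a heat shock element, searched as GAANNTTCNNGAA on both strands. Capitals mark the bases covered by 2 overlapping matches, 1 on each strand. The window runs from 250 bases before to 50 bases after the RefSeq start of Hspe1 (GRCm38.p6).
Hspe1 window (chr1:55087898-55088197, plus strand): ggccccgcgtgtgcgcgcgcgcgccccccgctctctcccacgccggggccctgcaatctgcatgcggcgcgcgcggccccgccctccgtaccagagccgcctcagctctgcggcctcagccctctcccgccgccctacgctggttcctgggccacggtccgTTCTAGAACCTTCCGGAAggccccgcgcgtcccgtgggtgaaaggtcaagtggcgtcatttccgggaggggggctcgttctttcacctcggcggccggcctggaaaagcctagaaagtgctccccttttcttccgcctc
Matches to this element were in 0.603% of 32851 RefSeq promoter windows of that length and in those of 3 of the 41 genes that had a window, Hspd1, Hspe1 and the cytosolic Hsph1. The same letters thus stand before a gene that rose and before one that was not called.

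Trap1 encodes the Hsp90 of mitochondria. It was at 61.2, 51.3 and 57.2 CPM in knockout hearts and at 72.7, 73.5 and 70.4 CPM in control hearts. Every knockout library lay below every control, and Trap1 fell, with a log2 value of -0.35 and an SE of 0.11 (adjusted p = 0.0318). With library size alone it turned to 0.34 and was not called (adjusted p = 0.136). The call was also lost in 9 other settings, among them 5 of the 6 omissions of a library, DESeq2 and the replicate block.

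Among 16 other genes of mitochondrial proteostasis, 4 rose and 3 fell, with a median of 0.32. This is 43.8%, against 36.5% of all tested genes, a share near the background. Grpel2, a nucleotide exchange factor of mtHsp70, was at 26.8, 36 and 33.1 CPM in knockout hearts and 12.3, 11.2 and 10.8 CPM in control hearts (1.47, SE 0.15, adjusted p = 8.03e-05). Its paralogue Grpel1 was at 59.3 to 72.5 CPM in knockout hearts and 50.5 to 56.5 CPM in control hearts and was not called (0.29, adjusted p = 0.0775). Clpb, a disaggregase of the intermembrane space, rose by 0.54 (SE 0.12, adjusted p = 0.00667). Tcaim, a mitochondrial protein first described in T cells, fell by 1.37 (SE 0.14, adjusted p = 1.11e-04).

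**Figure D3:**
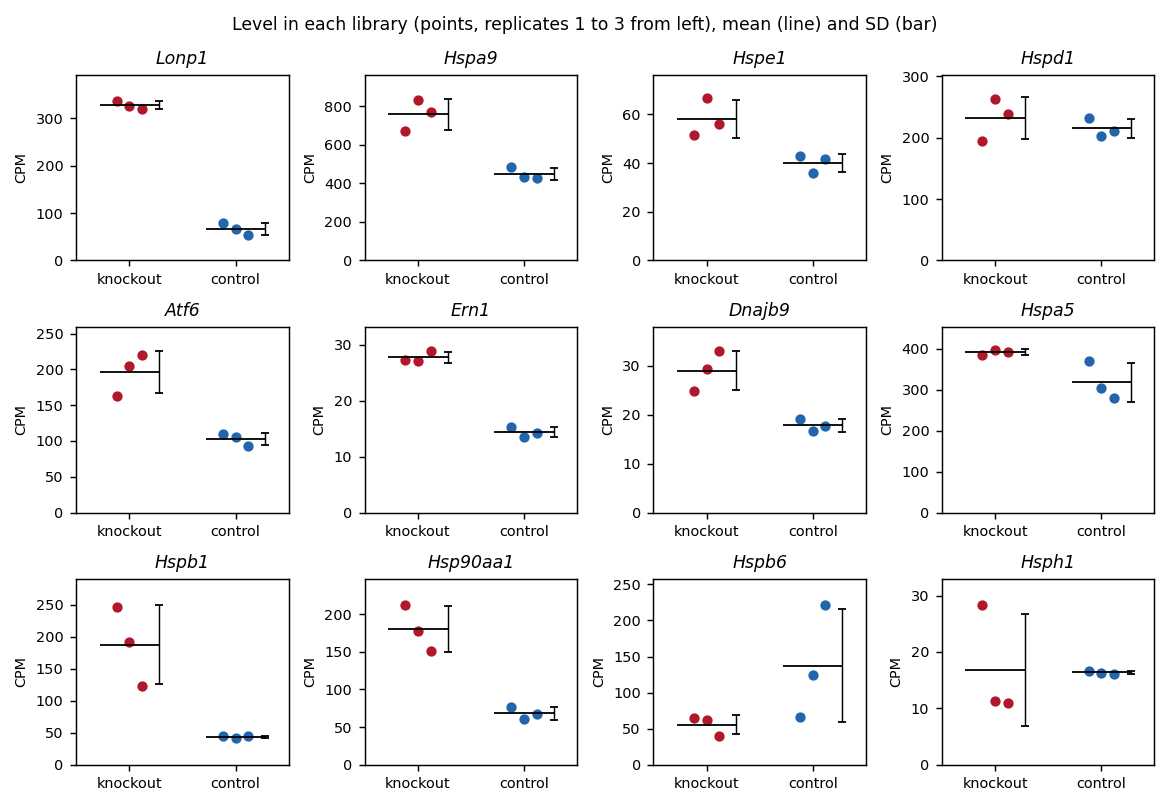
CPM in each library (points, replicates 1 to 3 from left in each group) with the group mean (line) and SD (bar) for 4 genes of each set, all axes starting at 0. The knockout and control points of Lonp1, Ern1 and Hspb1 are far apart, those of Hspd1 overlap, and Hsph1 has 1 high knockout library at 28.3 CPM above 2 at 11.4 and 10.9 CPM.

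In the ER set the genes of the sensors ATF6 and IRE1, the transcription factor gene Xbp1, the J-protein genes Dnajb9 and Dnajb11 and the degradation gene Sel1l rose, and 0 fell by edgeR. At an unadjusted p under 0.05, and in the authors' deposited table, 1 gene was lower, Pdia3. The genes of the abundant chaperones and isomerases, Hspa5, Hsp90b1, Calr, Canx, Pdia3, Pdia4 and Pdia6, were not called. The median of the set was 0.19.

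Atf6 encodes a membrane-bound transcription factor that is cut free under ER stress. It was at 163, 205 and 219.6 CPM in knockout hearts and at 109.7, 106 and 93.2 CPM in control hearts. The groups were well apart, with a rise of 0.93 (SE 0.14, adjusted p = 9.39e-04). Ern1 (chromosome 11, 106394650 to 106487852, minus strand) encodes IRE1 alpha, the kinase and nuclease that splices Xbp1 mRNA. It was at 27.3, 27.1 and 28.9 CPM in knockout hearts and 15.4, 13.6 and 14.3 CPM in control hearts. The spread within groups was small, and it rose by 0.94 (SE 0.12, adjusted p = 2.88e-04). Xbp1 encodes the transcription factor made from the spliced mRNA. It was at 48.8, 42.0 and 43.4 CPM in knockout hearts and 33.3, 28.6 and 31.5 CPM in control hearts (0.52, SE 0.11, adjusted p = 0.00606). Counts per gene do not separate the spliced from the unspliced Xbp1 form.

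Dnajb9 (ERdj4) is a J-protein known as a target of XBP1. It was at 24.8, 29.3 and 32.9 CPM in knockout hearts and 19.03, 16.6 and 17.8 CPM in control hearts, and rose by 0.70 (SE 0.14, adjusted p = 0.00338). Dnajb11 (ERdj3), a J-protein that brings clients to BiP, was at 37.6, 34.2 and 31.7 CPM in knockout hearts and at 22.1, 22 and 19.6 CPM in control hearts. It rose by 0.70 as well (SE 0.12, adjusted p = 0.00153). Both were called under every alternative tried, as were Atf6, Ern1 and Xbp1.

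Hspa5 encodes BiP, the Hsp70 of the ER lumen. It was at 385, 398 and 394 CPM in knockout hearts and at 371, 304 and 279.8 CPM in control hearts. The groups did not overlap, but control 1 lay close to the knockout libraries, and the change of 0.30 (SE 0.14) did not pass the test (adjusted p = 0.118). It was called without control 1. Hsp90b1 encodes GRP94, the Hsp90 of the ER, and was at 192, 172 and 170.0 CPM in knockout hearts and 224, 198 and 184 CPM in control hearts (-0.18, SE 0.13, adjusted p = 0.28). The ratio of Hspa5 to Hsp90b1 counts was 2, 2.32 and 2.32 in knockout hearts and 1.66, 1.53 and 1.52 in control hearts, without overlap.

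The lectin chaperones calreticulin and calnexin hold glycoproteins while they fold. Calr, with 122 to 162 CPM in knockout hearts and 137 to 168 CPM in control hearts, had a value of -0.10 (adjusted p = 0.616). Canx, with 225 to 238 CPM in knockout hearts and 217 to 249.6 CPM in control hearts, had a value of 0.00 (SE 0.12, adjusted p = 0.983). The isomerase genes Pdia4 (-0.09, adjusted p = 0.67) and Pdia6 (0.03, adjusted p = 0.906) were at most 66.7 CPM in any library and had overlapping groups. Pdia3, the isomerase ERp57 that works with the lectins, was at 56.3, 37.1 and 31.6 CPM in knockout hearts and 54.2, 57.0 and 80.8 CPM in control hearts. Its value was the lowest of the ER set at -0.61 (SE 0.22, adjusted p = 0.0532). It was called lower without knockout 1, with no filter, with DESeq2, with limma-voom and in the authors' deposited table.

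The 4 other members of the ER lumen were not called with the main settings. Manf, a secreted ER stress factor, was at 16.03, 15.2 and 14.8 CPM in knockout hearts and 13.02, 11.8 and 10.8 CPM in control hearts (0.37, SE 0.13, adjusted p = 0.0541). It was called when mitochondrial-encoded genes were left out of the TMM scaling (0.38, adjusted p = 0.0492) and with library size alone. Creld2, an ER stress-inducible protein of the lumen, was at 8.13 to 9.66 CPM in knockout hearts and 5.11 to 8.20 CPM in control hearts (0.45, SE 0.19, adjusted p = 0.089). It was called with no filter on low counts (0.50), without control 1 (0.68) and with library size alone. Dnajc3, the J-protein p58IPK, was at 49.5 to 51.9 CPM in knockout hearts and 45.1 to 55.0 CPM in control hearts (0.04, adjusted p = 0.828). Sdf2l1, a partner of ERdj3, had the lowest levels of the set, at 2.09 to 3.45 CPM in knockout hearts and 1.63 to 3.46 CPM in control hearts (0.10, SE 0.34, adjusted p = 0.846).

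Sel1l, Syvn1, Herpud1 and Edem1 act in ER-associated degradation. Sel1l, the adaptor of the ubiquitin ligase HRD1, was at 79.0, 78.4 and 72.2 CPM in knockout hearts and 58.6, 64.6 and 53.6 CPM in control hearts. It rose by 0.38 (SE 0.11, adjusted p = 0.0270), but was not called without knockout 2, control 1 or control 3, nor with the replicate block. Syvn1, which encodes HRD1 itself, was at 5.48 to 6.05 CPM in knockout hearts and 5.69 to 9.56 CPM in control hearts (-0.39, SE 0.20, adjusted p = 0.148). Herpud1, a membrane protein that joins the HRD1 complex, was at 72.0, 122 and 120.4 CPM in knockout hearts and 117, 95.3 and 76.0 CPM in control hearts, with groups that overlapped fully (0.12, SE 0.22, adjusted p = 0.688). Edem1, a mannosidase-like factor that marks misfolded glycoproteins, was at 19.4 to 22.1 CPM in knockout hearts and 16.9 to 17.7 CPM in control hearts, without overlap, but was not called (0.26, SE 0.12, adjusted p = 0.105).

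The promoter sequences of the ER set are shown because some of them hold known elements for ATF6 and XBP1. Windows were 300 bases, from 250 before to 50 after each RefSeq start (GRCm38.p6), and 18 of the 20 ER genes had one. The ER stress response element, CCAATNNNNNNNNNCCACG on either strand, was in 8 of the 41 windowed genes of all sets, each of them an ER gene, and in 0.119% of all 32851 windows. When only matches from 100 bases before the start onward were taken, it was in 3 of these genes and in 0.0578% of all windows. The shorter element II, ATTGGNCCACG, was in 2 genes, Dnajb11 and Herpud1, and in 0.0365% of all windows. Each match follows in capitals, 5′ to 3′ on the strand of the gene, with 12 flanking bases on either side.
Hspa5 (chr2:34772013-34772055, plus strand): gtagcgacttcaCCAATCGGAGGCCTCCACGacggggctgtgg
Hsp90b1 (chr10:86705626-86705668, minus strand): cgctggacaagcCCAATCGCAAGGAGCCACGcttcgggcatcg
Hsp90b1 (chr10:86705521-86705563, minus strand): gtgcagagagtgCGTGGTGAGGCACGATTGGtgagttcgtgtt
Calr (chr8:84847063-84847105, minus strand): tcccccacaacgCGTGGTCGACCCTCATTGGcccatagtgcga
Canx (chr11:50325788-50325830, minus strand): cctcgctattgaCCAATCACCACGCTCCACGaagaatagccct
Pdia6 (chr12:17266479-17266521, plus strand): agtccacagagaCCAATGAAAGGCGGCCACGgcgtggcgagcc
Dnajc3 (chr14:118937815-118937857, plus strand): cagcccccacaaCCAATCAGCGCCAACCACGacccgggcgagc
Creld2 (chr15:88819508-88819550, plus strand): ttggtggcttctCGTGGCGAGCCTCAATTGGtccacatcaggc
Syvn1 (chr19:6046520-6046562, plus strand): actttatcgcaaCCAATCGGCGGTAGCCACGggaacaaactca
Herpud1 (chr8:94386365-94386399, plus strand): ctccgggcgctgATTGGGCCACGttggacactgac
Dnajb11 (chr16:22857840-22857874, plus strand): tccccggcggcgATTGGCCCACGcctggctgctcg
The element of Hspa5 spans bases 65 to 47 before its start, and that of Dnajb11 bases 7 to 17 after it. Hsp90b1 has a match on each strand. The whole Hspa5 window shows its element beside further CCAAT stretches.
Hspa5 window (chr2:34771840-34772139, plus strand): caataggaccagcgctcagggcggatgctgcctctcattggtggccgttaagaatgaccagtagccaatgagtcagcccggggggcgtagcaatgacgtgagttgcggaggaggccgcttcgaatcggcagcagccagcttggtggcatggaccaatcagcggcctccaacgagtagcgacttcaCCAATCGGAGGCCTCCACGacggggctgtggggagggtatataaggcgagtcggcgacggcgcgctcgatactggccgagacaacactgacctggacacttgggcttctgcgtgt

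The ER genes were set beside these matches as a description only. Of the 10 genes with an element 1 rose, Dnajb11, and their values ran from -0.39 to 0.70 with a median of 0.03, where 18.7% of all tested genes were called higher. Of the 8 genes without one 4 rose, Dnajb9, Xbp1, Ern1 and Sel1l, and their values ran from -0.61 to 0.94 with a median of 0.32. The difference between the genes with and without an element was not tested. Other forms of the element were not searched. The shorter unfolded protein response element, TGACGTGG, was in 0 of the 41 windowed genes and in 0.676% of all windows. The C/EBP-ATF element, searched as TGATGNAA, was in 3.97% of all windows and in 1 gene, Herpud1.

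**Figure D4:**
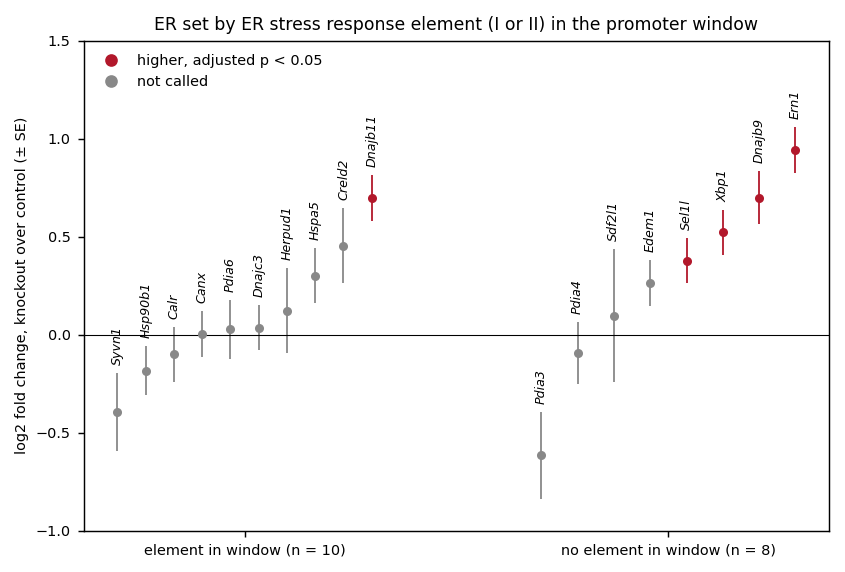
Log2 fold change, knockout over control (± SE), of the 18 ER genes with a promoter window, split by whether the window holds an ER stress response element (10 genes) or not (8 genes). Only Dnajb11 is red (called higher) on the left, where 9 genes lie between -0.39 and 0.45, and 4 genes are red on the right.

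Of 30 tested genes of ER folding and quality control outside the set, 14 rose and 1 fell, with a median of 0.30. This is 50%, against 36.5% of all tested genes. Derl1, a channel protein of ER-associated degradation, was at 60.9, 76.1 and 74.2 CPM in knockout hearts and 34.98, 31.5 and 32.5 CPM in control hearts. It rose by 1.09 (SE 0.12, adjusted p = 1.69e-04), and Serp1, which stabilises membrane proteins during translocation, by 0.92 (SE 0.13, adjusted p = 5.26e-04). Of 13 genes of the PERK arm and targets of its transcription factor ATF4, 11 rose (84.6%), with a median of 2.25. Atf4 rose by 2.85 (SE 0.14, adjusted p = 1.77e-06), Asns by 5.49 (SE 0.20, adjusted p = 4.01e-07) and Trib3 by 6.08 (SE 0.28, adjusted p = 1.24e-06). Eif2ak3, which encodes PERK itself, was at 9.74 to 13.3 CPM in knockout hearts and 8.94 to 9.93 CPM in control hearts and was not called (0.27, SE 0.16, adjusted p = 0.204). ATF4 is also reached from other kinases that phosphorylate eIF2 alpha.

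In the cytosolic set 11 genes rose and 1 fell. Those that rose were of the Hsp70 group (Hspa1a, Hspa1b, Hspa8, Hspa4), the inducible Hsp90 gene Hsp90aa1, the J-protein gene Dnajb1, the small heat shock protein genes Hspb1, Hspb2 and Hspb8, and both CCT genes, Cct2 and Cct5. The small heat shock protein gene Hspb6 fell. The median of the set was 0.59. Hsf1 and the genes Hsp90ab1, Hsph1, Dnaja1, Bag3, Hspb3, Hspb7 and Cryab were not called.

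Hspa8 encodes Hsc70, the Hsp70 present in unstressed cells. It was at 814, 949.5 and 823 CPM in knockout hearts and 571, 455 and 393 CPM in control hearts. The lowest knockout library was well above the highest control, and Hspa8 rose by 0.87 (SE 0.17, adjusted p = 0.00338). Hspa4, an exchange factor of the Hsp110 family, was at 185, 209 and 184 CPM in knockout hearts and 137, 129.5 and 135 CPM in control hearts, and rose by 0.53 (SE 0.11, adjusted p = 0.00589). Hsph1, the other Hsp110 gene of the set, was at 28.3, 11.4 and 10.9 CPM in knockout hearts and 16.6, 16.3 and 16.2 CPM in control hearts. Knockout 1 lay above and both other knockout libraries below all controls. Its value was 0.05 (SE 0.32, adjusted p = 0.913) and turned to -0.55 without knockout 1, where it was called lower (adjusted p = 0.00649).

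The stress-inducible Hsp70 genes Hspa1a and Hspa1b were rare. Hspa1a had 106, 65 and 31 counts in knockout libraries and 19, 5 and 0 counts in control libraries, or 5.63, 3.77 and 2.496 CPM in knockout hearts and 1.43, 0.556 and 0 CPM in control hearts. It rose by 2.41 (SE 0.59, adjusted p = 0.0105), but was not called with DESeq2 and in the authors' deposited table. With 1 library left out in turn, the value ranged from 1.94 without control 3 to 3.79 without control 1. Hspa1b had 106, 56 and 26 counts in knockout libraries and 27, 3 and 9 counts in control libraries, and rose by 1.61 (SE 0.51, adjusted p = 0.0320). That call was lost without knockout 1, knockout 2, control 2 or control 3, and the value ranged from 1.14 without knockout 1 to 2.44 without control 1. The genes are 99.2% identical over 2201 bases, so reads cannot be told apart with certainty. Summed, they had 212, 121 and 57 counts in knockout libraries and 46, 8 and 9 counts in control libraries, a rise of 1.99 (SE 0.47, adjusted p = 0.0087). In both groups library 1 was the highest.

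Hsp90aa1 and Hsp90ab1 encode the inducible and the constitutive cytosolic Hsp90. Hsp90aa1 was at 213, 178 and 152 CPM in knockout hearts and 76.9, 60.3 and 67.1 CPM in control hearts. It rose by 1.41 (SE 0.16, adjusted p = 1.5e-04), or 2.65-fold. Hsp90ab1 was at 676, 625 and 581 CPM in knockout hearts and 536, 508 and 560.3 CPM in control hearts. Its groups were separate but close, and the value of 0.23 (SE 0.13) did not pass the test (adjusted p = 0.201). The ratio of Hsp90aa1 to Hsp90ab1 counts was 0.314, 0.285 and 0.261 in knockout hearts and 0.143, 0.119 and 0.120 in control hearts. Per length Hsp90ab1 had the highest mean of the 52 transcripts in both groups, at 209 RPKM in knockout hearts, just above Hspa8 at 200.4 RPKM, and at 178 RPKM in control hearts, just above Cryab at 174 RPKM. Both pairs lay within the spread of the libraries.

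Dnajb1 and Dnaja1 encode J-proteins that drive cytosolic Hsp70. Dnajb1, the Hsp40 induced by heat shock, was at 9.76, 13.4 and 14.9 CPM in knockout hearts and 8.05, 8.78 and 7.20 CPM in control hearts. It rose by 0.66 (SE 0.18, adjusted p = 0.0199), and it lost the call without knockout 2, knockout 3, control 1 or control 3. Dnaja1 was at 28.4 to 36.9 CPM in knockout hearts and 28.1 to 31 CPM in control hearts and was not called (0.13, SE 0.13, adjusted p = 0.453). Bag3, a cochaperone that links Hsp70 and small heat shock proteins to autophagy in muscle, was at 59.6, 44.2 and 36.4 CPM in knockout hearts and 53.9, 67.8 and 62.6 CPM in control hearts. Knockout 1 lay among the controls, and the value of -0.39 (SE 0.18, adjusted p = 0.108) was called only when knockout 1 was left out, among the 6 omissions. Hsf1, the transcription factor of the heat shock response, was at 11.1 to 13.3 CPM in knockout hearts and 11.2 to 15.1 CPM in control hearts (-0.10, SE 0.15, adjusted p = 0.644).

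Of the 7 small heat shock protein genes 3 rose, 1 fell and 3 were not called, where 18.7% of all tested genes were called higher and 17.8% lower. Hspb1, which encodes Hsp27 (Hsp25 in mouse), was at 246, 191 and 123 CPM in knockout hearts and 44.2, 41.0 and 44.7 CPM in control hearts. It rose by 2.11 (SE 0.22, adjusted p = 1.15e-04), or 4.32-fold, with far more spread among knockout than among control libraries. Hspb8 encodes Hsp22, the partner of BAG3, and was at 335, 369 and 284 CPM in knockout hearts and 181, 152 and 146 CPM in control hearts (1.04, SE 0.15, adjusted p = 5.43e-04). Both were called under every alternative tried.

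Hspb2, a muscle small heat shock protein, was at 37.6, 39.4 and 31.2 CPM in knockout hearts and 19.8, 21.6 and 22.2 CPM in control hearts, and rose by 0.77 (SE 0.13, adjusted p = 0.00126). Its neighbour Cryab, which encodes alpha B-crystallin, was at 336, 303 and 219.5 CPM in knockout hearts and 179.5, 247 and 347 CPM in control hearts. Those groups overlapped fully, with a value of 0.15 (SE 0.24, adjusted p = 0.646). The genes lie head to head on chromosome 9, Hspb2 at 50751078 to 50752354 on the minus strand and Cryab at 50751325 to 50756636 on the plus strand, and 252 bases, 30.2% of the exonic bases of Hspb2, are shared. Without a stated strand setting, Cryab reads in that stretch cannot be told apart from Hspb2 reads. The ratio of Hspb2 to Cryab counts was 0.112, 0.130 and 0.142 in knockout hearts and 0.110, 0.0873 and 0.0640 in control hearts.

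Hspb6 encodes Hsp20, a small heat shock protein of heart and smooth muscle. It was at 64.5, 62.1 and 40.3 CPM in knockout hearts and 66.0, 124 and 221 CPM in control hearts. Control 1 lay just above the highest knockout library, and the highest control was 3.35 times the lowest. Hspb6 fell, with a log2 value of -1.29 and an SE of 0.36 (adjusted p = 0.0190). The call was lost without knockout 3 or control 3, with a robust fit, with library size alone and with the replicate block, and values ran from -1.62 to -0.76 over the omissions. Hspb7, the cardiovascular small heat shock protein, was at 607, 338 and 287 CPM in knockout hearts and 272, 429 and 383 CPM in control hearts, with overlapping groups (0.18, SE 0.27, adjusted p = 0.63). Hspb3 was at 2.66 to 4.94 CPM in knockout hearts and 3.76 to 5.34 CPM in control hearts (-0.29, SE 0.26, adjusted p = 0.403). Per length, Hspb1 averaged 181 RPKM in knockout hearts and 42.0 RPKM in control hearts, and Cryab 193 RPKM in knockout hearts and 174 RPKM in control hearts.

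Cct2 and Cct5 encode subunits of the CCT ring, the chaperonin that folds actin and tubulin. Cct5 was at 161, 165 and 146 CPM in knockout hearts and 74.8, 64.3 and 62.7 CPM in control hearts, and rose by 1.22 (SE 0.12, adjusted p = 8.8e-05). Cct2 was at 124.9, 140.1 and 122 CPM in knockout hearts and 75.2, 64.3 and 64.8 CPM in control hearts, and rose by 0.92 (SE 0.12, adjusted p = 3.98e-04). The knockout libraries of both lay close together and far above the controls. All 8 tested subunits of the ring rose, the 6 outside the set by 0.56 to 1.07 with an adjusted p of at most 0.0096. Among these Cct8 rose by 0.94 (SE 0.13, adjusted p = 5.27e-04) and Cct3 by 1.07 (SE 0.16, adjusted p = 8.01e-04). A list outside the set held genes of the ring, genes of prefoldin, which hands actin and tubulin to it, and Pdcl3, which belongs to neither. Of its 13 tested genes 10 rose (76.9%), Pdcl3 among them, with a median of 0.63. By edgeR 0 of the 13 fell, also at an unadjusted p under 0.05 and in the authors' deposited table. Of all tested genes 18.7% were called higher and 17.8% lower. The prefoldin gene Pfdn6 rose by 0.999 (SE 0.16, adjusted p = 0.00105), and Pfdn1 and Vbp1 also rose. The prefoldin genes Pfdn2 (-0.43), Pfdn4 (0.24) and Pfdn5 (0.33) were not called.

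Of 38 tested other cytosolic chaperones and cochaperones, 15 rose and 4 fell, with a median of 0.30. This is 50%, against 36.5% of all tested genes, of which 18.7% were called higher and 17.8% lower. Dnajc2, a J-protein at the ribosome that meets new chains, was at 26.5, 30.2 and 31.2 CPM in knockout hearts and 13.1, 11.8 and 12.1 CPM in control hearts (1.24, SE 0.13, adjusted p = 9.02e-05). Hspa12a, a distant Hsp70 relative, was at 9.29, 11.6 and 12.2 CPM in knockout hearts and 33.3, 31.9 and 34.7 CPM in control hearts, and fell by 1.60 (SE 0.14, adjusted p = 3.52e-05). Fkbp4, an Hsp90 cochaperone with isomerase activity, fell by 0.95 (SE 0.16, adjusted p = 0.0015), and its call was lost with library size alone (-0.28, adjusted p = 0.286). With library size alone, 99 of the 110 tested genes of these further lists were called, where 56.6% of all tested genes were called higher and 3.86% lower. With TMM 62 of the 110 were called, against 36.5% of all tested genes in either direction.

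**Figure D5:**
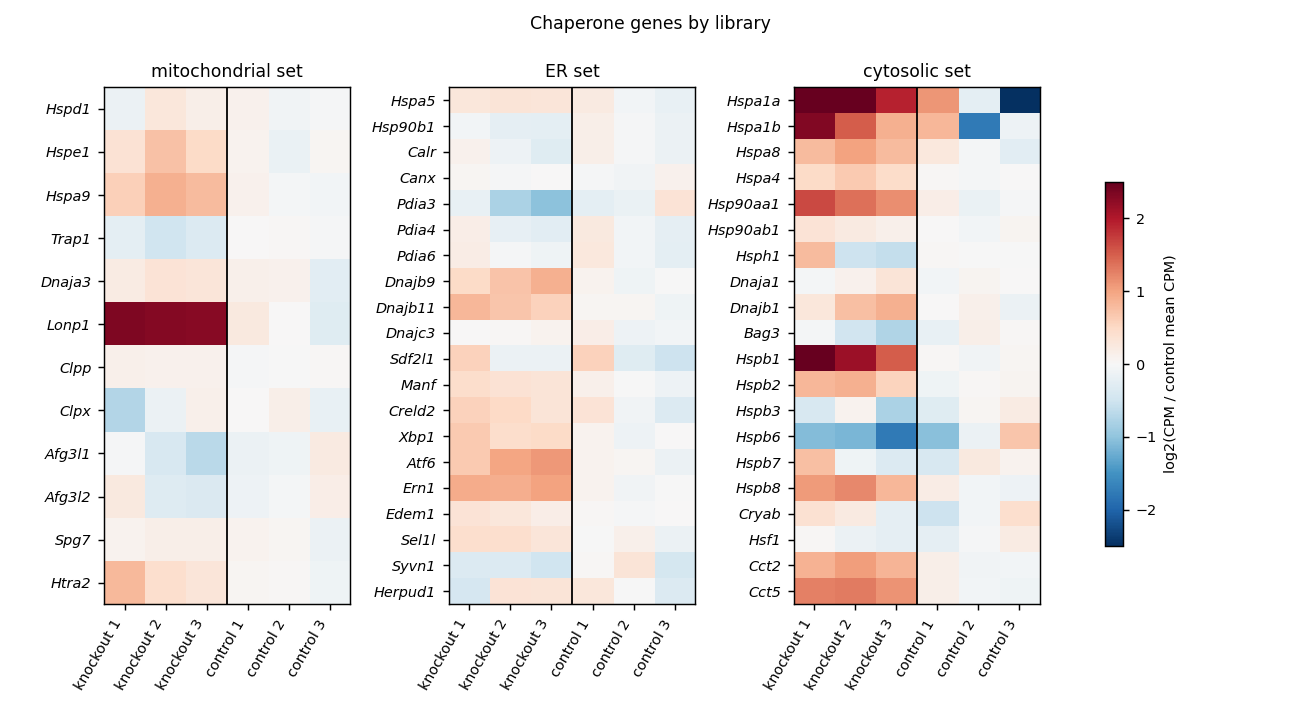
Log2 of the CPM of each library over the control mean for the 52 genes, in the order listed by set, with the 3 knockout libraries left of the line and the 3 control libraries right of it; colours stop at the ends of the scale, which includes the control 3 cell of Hspa1a with 0 counts. Lonp1, Hspa9, Atf6, Ern1, Hspa8, Hsp90aa1, Hspb1, Hspb8, Cct2 and Cct5 are red in every knockout library, while Hspb6 and Pdia3 differ within groups.

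For many of these genes the same library was the highest or the lowest of its group. Knockout 1 was the highest of the knockout libraries for 31 of 52 genes (59.6%), against 36.1% of all tested genes. Knockout 3 was the lowest for 32 (61.5%), against 32% of all tested genes, and for 17 of the 20 cytosolic genes. Control 1 was the highest control for 32 of 52 (61.5%), against 33.9% of all tested genes, and for 16 of the 20 ER genes. Knockout 1 had 3040 summed fibroblast marker CPM, against 2164 and 1774 CPM in the other knockout libraries. The markers did not all follow this sum. Among the knockout libraries, Col1a1, Col1a2, Col3a1, Postn, Tcf21 and Ddr2 were highest in knockout 1. Dcn, Lum and Dpt were lowest in it, and Pdgfra lay between. The part of the difference in summed CPM in these counts was not tested.

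Summed over its members, the cytosolic set was at 3954, 3694 and 3110 CPM in knockout hearts and 2359, 2439 and 2582 CPM in control hearts. The mitochondrial set was at 1627, 1842 and 1750 CPM in knockout hearts and 1210, 1119 and 1096 CPM in control hearts. The ER set was at 1691, 1694 and 1678 CPM in knockout hearts and 1628, 1445 and 1399 CPM in control hearts. The 3 sums were higher in each knockout library than in each control, with the smallest gap in the ER set. A sum follows its most abundant genes. Hspa9 averaged 759 CPM in knockout and 447 CPM in control hearts, and Lonp1 328 and 66.5 CPM. Of the single genes, 7 of 12 mitochondrial, 14 of 20 ER and 8 of 20 cytosolic genes were not called. Values below 0 were found for 4 mitochondrial, 5 ER and 4 cytosolic genes.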

How the data were processed

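Whole-heart RNA of 3 knockout and 3 control mice was sequenced. The submitters' processing notes name HISAT2 2.0.5, SAMtools 1.5, featureCounts 1.5.1, DESeq2 1.16.1 and the mm10 build, without saying what each did. The counts used here are the authors' raw whole numbers per gene. The authors also deposited a normalised signal, the counts over 1 size factor per library. Their deposited table gives, per gene, a mean signal, a log2 fold change, a test statistic (a score), and raw and adjusted p-values.

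Counts entered edgeR 4.0.16 (R 4.3.3) and its quasi-likelihood test, with TMM scaling, filterByExpr (default minimum count of 10), no block, and Benjamini-Hochberg adjustment. Technical replicates of each mouse had been joined into 1 column. Libraries of a group differed by more than sampling noise (smallest chi-square over its degrees of freedom 8.93). Groups and replicate numbers came from the sample titles. Exon lengths and coordinates are from GENCODE M21 (GRCm38, the build of mm10), and promoter windows from RefSeq, GRCm38.p6. Near-identical stretches in transcripts of other genes were sought with blastn 2.17.0 at 95% identity over at least 100 bases. Of the 52 genes 16 had a match. Pseudogene copies were found for Hspa8 (Gm15459, 1941 bases at 99.7% identity), Hsp90aa1 (Gm12346, 2255 bases at 99.5%) and Hspb1 (Hsp25-ps1, 630 bases at 99.4%). As for Hspd1, reads of these copies may have been split by the counting, which also enters the ratios given. Some matches are not copies but shared bases of genes that overlap on opposite strands, such as Hspb2 and Cryab, or Dnaja1 and Smu1 (608 bases). On counts simulated for the knockout against control comparison (14064 tested genes), 10%, 70%, 88% and 96% of genes changed 1.5-fold, 2-fold, 4-fold and 8-fold were recovered, and 10 of 13874 unchanged genes were called. The simulation changed 200 genes, while 36.5% of tested genes were called in the data, so these rates may not carry over.

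The members and lists were chosen with earlier results of these data known. Named were every member, Elac2, and up to 3 called genes with the smallest adjusted p from each further list. A gene that this rule takes from the further ER list is not reported here. Grpel1, Eif2ak3, Pdcl3, the prefoldin genes other than Pfdn6 and the single fibroblast markers were named after their values were seen. Of 35 further ER symbols 32 were in the table. The tests were repeated with RLE scaling, library size alone, TMM without the 13 mitochondrial-encoded features, no filter, at least 50 counts in 3 libraries, DESeq2 1.42.0, limma-voom (limma 3.58.1), a robust fit, each library left out, a replicate block and an adjusted p under 0.01, and set beside the authors' deposited table. Summing Hspa1a and Hspa1b was added after seeing the data.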

Additional observations from a re-analysis of the deposited data

How the results depend on the processing

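Calls over all genes ranged from 3006 at an adjusted p under 0.01 to 8645 with library size alone, against 5215. With library size alone, 9 mitochondrial and 16 ER genes and 99 of the further pathway genes were called. Of all tested genes 56.6% were then called higher and 3.86% lower. The medians of the mitochondrial, ER and cytosolic sets with library size alone were 0.81, 0.87 and 1.28, against 0.12, 0.19 and 0.59. That setting turned the sign of Trap1 (0.34), Afg3l2 (0.59), Calr (0.59), Pdia4 (0.58) and Hsf1 (0.61), and of 7 further genes of the sets that were called in neither setting. An adjusted p under 0.01 left 2 mitochondrial and 41 further genes called. The mitochondrial median was 0.17 and the ER median 0.24 with no filter, and the cytosolic median was 0.35 with at least 50 counts in 3 libraries. When each library was left out in turn, mitochondrial calls ranged from 2 to 6, the mitochondrial median from 0.11 to 0.19 and the ER median from 0.14 to 0.34. For Hsph1 the values ranged from -0.55 without knockout 1 to 0.28 without knockout 3. The cause of these shifts was not tested. With RLE scaling all 52 genes kept their side of the threshold. The labels do not say whether replicate numbers pair the mice. Deviations from the group mean correlated at -0.198, 0.0851 and -0.0871 between knockout and control libraries of the same number. With 3 libraries per group, these correlations cannot decide it. The replicate block gave 4293 calls over all genes, with 4 mitochondrial, 5 ER and 11 cytosolic genes. It lost Trap1, Sel1l and Hspb6. By the authors' own deposited values, 4 mitochondrial, 7 ER and 11 cytosolic genes were called. A search with 1 mismatch, meant for motifs of more than 10 fixed letters, was not run, since no motif searched here had more. Depth limits Hspa1a and Hspa1b most, with as few as 0 and 3 counts in a library.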
